A study of Mus musculus with 70 samples.

Results

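Transcripts of 8 genes of the Notch pathway were followed in progenitors of the innate lymphoid lineages, sorted from the bone marrow of mice. The genes are the receptors Notch1 and Notch2, the DNA-binding effector Rbpj, the corepressor Tle1, the target genes Hes1 and Hey1, and the pathway regulators Dtx1 and Nrarp. They were chosen by name and found by Entrez identifier, and all 8 were present among the 27179 genes of the count tables. A filter on low counts kept 10972 genes for testing and 7 of the 8 members. Dtx1 did not pass it and is given as levels only.

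Every sample was a pool of 100 cells sorted by flow cytometry into lysis buffer. Its RNA was read by CEL-seq, a method with linear amplification in which reads fall near the 3′ ends of transcripts. The order of the populations runs from common lymphoid progenitors (CLP) and CLP with the integrin α4β7 (labelled a4b7_CLP) to common innate lymphoid progenitors (CILP), cells labelled ILCP, and precursors of the group 2 lineage (ILC2P). The design text lists a Sca1+ CILP population that no sample label names, and no label ties ILCP to a sort gate. The donors were wild-type mice, TCF7-/- mice (Tcf7 knockout below, without the transcription factor TCF-1) and Id2-/- mice (Id2 knockout below, without an inhibitor of E proteins). How the alleles were made, and the age and sex of the mice, are not given in the sources used here. There were 8 libraries of CLP from the wild type, 5 of α4β7+ CLP, 7 of CILP, 3 of ILCP and 8 of ILC2P. The Tcf7 knockout was sampled in 5 CLP, 4 CILP and 2 ILC2P libraries, and the Id2 knockout in 2 CLP, 2 CILP and 1 ILCP library.

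Notch receptors are cleaved when a ligand on a neighbouring cell binds them, and the released intracellular domain joins RBPJ on DNA and switches on genes such as Hes1, Hey1, Dtx1 and Nrarp. Without the intracellular domain RBPJ recruits corepressors, among which Groucho family proteins such as TLE1 act. In lymphoid progenitors Notch1 signalling is known for directing cells to the T lineage, and Tcf7, Gata3, Bcl11b and Il2ra are among the genes it turns on there.

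Levels are CPM, the counts of a gene per 1e6 counts of the library after scaling, and a ± gives the SD among libraries. Library totals ranged from 19322 to 624668 counts (median 134985), with 22 of the 47 libraries in batch 1 and 25 in batch 2. The Id2 knockout was sampled in batch 1 alone and Tcf7 knockout ILC2P in batch 2 alone, so these groups are tied to 1 batch. Whether libraries of 1 group are from different mice is not stated, and the spread behind each p-value may be technical. A level is an amount of RNA in a sorted pool: fewer cells with a transcript and less RNA per cell cannot be told apart. Of the markers of the sorted cells, the 5 CLP markers (Flt3, Il7r, Dntt, Rag1, Ly6d) took 0.879% to 1.72% of counts in wild-type CLP and 0.131% to 0.277% in CILP, and the 6 CILP markers took 0.25% to 0.584% in CILP against 0.000631% to 0.0605% in CLP. The 12 control wells, which held only spike-in RNA, had 23418 counts on genes in all, with 3 counts of Notch1, 4 of Notch2, 1 of Rbpj, 13 of Tle1, 1 of Hes1 and 0 of Hey1, Dtx1 and Nrarp. All 13 Tle1 counts lay in 1 well of 6936 counts.

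Promoter windows of 250 bases before the annotated start were read from RefSeq (GRCm38.p6, the assembly of mm10) for 6 of the 8 members, all but Hes1 and Hey1. Notch1 lies on chromosome 2 (chr2:26457902-26503822, minus strand) and Rbpj on chromosome 5 (chr5:53555779-53657445, plus strand). Notch1 is shown because its transcript gave the differences that held best, and Rbpj because its windows alone among the members held the RBPJ core letters. The Rbpj window belongs to an annotated start inside the span of the gene and not at its outer end. Both are printed 5′ to 3′ on the strand of the gene, from chr2:26503823-26504072 for Notch1 and chr5:53590096-53590345 for Rbpj. Capitals mark a match to 1 of the letter strings searched.
Notch1: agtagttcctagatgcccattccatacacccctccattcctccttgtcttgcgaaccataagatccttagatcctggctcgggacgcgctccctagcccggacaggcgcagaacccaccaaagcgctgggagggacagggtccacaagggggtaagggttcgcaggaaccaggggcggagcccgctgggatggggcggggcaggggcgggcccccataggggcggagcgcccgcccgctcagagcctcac
Rbpj: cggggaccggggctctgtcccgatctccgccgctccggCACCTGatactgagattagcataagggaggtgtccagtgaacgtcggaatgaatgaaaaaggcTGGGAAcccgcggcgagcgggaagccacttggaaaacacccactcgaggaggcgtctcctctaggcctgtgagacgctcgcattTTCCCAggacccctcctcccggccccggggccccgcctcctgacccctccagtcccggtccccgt
The letters TGGGAA, the core bound by RBPJ, were searched on both strands (TTCCCA on the other). The Rbpj window held them 149 bases before the start on the plus strand and 65 bases before it on the minus strand, and CAGGTG, an E protein site, on the minus strand 212 bases before the start. A second, overlapping Rbpj window at chr5:53590236-53590485 holds the second of these again. The windows of Notch1, Notch2, Tle1, Dtx1 and Nrarp held no TGGGAA. This core occurred in 21.6% of 32851 promoter windows of this length and CAGGTG in 17.2%. CTTTGA, the TCF and LEF core (13.8% of windows), and CAGCTG, another E protein site (13%), occurred in none of the members' windows. These are matches of letters and carry no measurement of binding.

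Notch1, which encodes the receptor that drives T lineage choice, was high in both CLP populations and low in every later wild-type population. The 8 CLP libraries ran from 226.6 to 874.2 CPM (median 384.3). The 5 α4β7+ CLP libraries stood at 278.5, 278.7, 402.3, 527.3 and 649.9 CPM. In the 7 CILP libraries the level ran from 0 to 98.6 CPM (median 66.9), in the 3 ILCP libraries it was 24.2, 29.6 and 33.7 CPM, and in the 8 ILC2P libraries it ran from 0 to 103.6 CPM (median 27.8). The highest CILP or ILC2P library thus lay below the lowest CLP library, and this was so within each batch: in batch 1 CILP reached 69.9 CPM against at least 296.9 in CLP, and in batch 2 it reached 98.6 CPM against at least 226.6. The share of all genes without overlap between these groups was not computed.

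Notch1 fell 7.05-fold from CLP (432.1 ± 210.7 CPM, n = 8) to CILP (57.2 ± 35.8 CPM, n = 7), a log2 fold change of −2.82 (SE 0.65, adjusted p = 0.00329 by edgeR's quasi-likelihood test with Benjamini-Hochberg adjustment). It fell 6.91-fold from α4β7+ CLP (427.4 ± 161.5 CPM, n = 5) to CILP (log2 −2.79, SE 0.69, adjusted p = 0.00992 in edgeR). From CLP to ILC2P (35.1 ± 39 CPM, n = 8) it fell 13-fold (log2 −3.70, SE 0.69, adjusted p = 6.17e-05 in edgeR). These comparisons share their CLP or CILP libraries and are not independent. Over all genes tested the median log2 fold change of ILC2P against CLP was −0.43. Totals were lower in ILC2P (median 66812.5 counts) than in CLP (median 140517.5 counts), and the part of depth was not tested. In the pooled control wells the 3 Notch1 counts, from 2 wells, were 128.1 per 1e6 of the wells' own counts, so how much of the low level in the later populations is background was not tested. The 2 CLP populations did not differ by the test (log2 −0.03, SE 0.65, adjusted p = 1 in edgeR), nor did ILCP from CILP (log2 −1.02, SE 0.91, adjusted p = 0.747) or ILC2P from CILP (log2 −0.88, SE 0.69, adjusted p = 0.489). In the order of the wild-type means, α4β7+ CLP and CILP were the only neighbours that differed by more than the larger SD (370.1 against 161.5 CPM). With batch 2 alone the fall from CLP to CILP kept its size but lost its call (log2 −2.59, adjusted p = 0.215), as did that from α4β7+ CLP (log2 −2.44, adjusted p = 0.433).

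Markers of other cells moved across the same step. The 6 T cell markers (Cd3e, Cd3d, Cd3g, Cd4, Cd8a, Trbc1) took 0% to 0.00329% of counts in wild-type CLP, with Cd3e, Cd3d and Cd3g at 0, and 0.0136% to 0.448% in CILP, where none was at 0 and Trbc1 led at 2357.8 ± 2324.6 CPM (n = 7). The 6 dendritic markers took 0.0496% to 0.962% in CLP and 0.0288% to 0.0865% in CILP, and the 5 mast cell and basophil markers 0% in CLP and 0.00473% to 0.475% in CILP. Their part in the results on Notch1 and on the genes below was not tested.

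**Figure D1:**
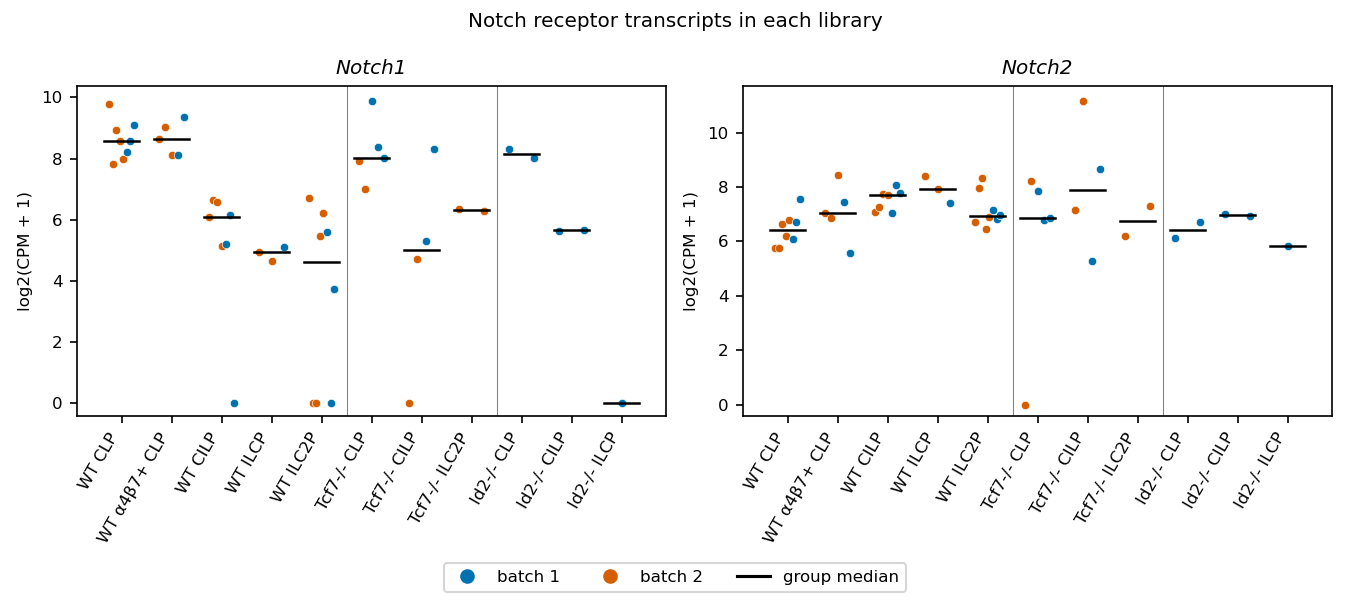
CPM of Notch1 (left) and Notch2 (right) in each of the 47 libraries, on a log2(CPM + 1) axis, by genotype and population. Points are libraries coloured by batch and bars are group medians. Wild-type CILP, ILCP and ILC2P libraries lie below every CLP library for Notch1, while Notch2 overlaps between all wild-type groups.

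Notch2 (chr3:98013538-98150367), the receptor known in B cell and dendritic cell biology, was detected in every wild-type library and passed no test. CLP ran from 53.7 to 187.3 CPM (93.3 ± 43.7, n = 8) and α4β7+ CLP stood at 46.7, 114.9, 132.1, 173.3 and 344.3 CPM. CILP ran from 130.6 to 265.7 CPM (189.1 ± 50.8, n = 7), ILCP stood at 168.3, 242.3 and 335.8 CPM, and ILC2P ran from 86.3 to 320 CPM (157.2 ± 82.8, n = 8). CILP and CLP overlapped through 1 CLP library, at 187.3 CPM, which lay above 3 of the 7 CILP libraries, and the difference did not pass (log2 1.02, SE 0.60, adjusted p = 0.417 in edgeR). No neighbours in the order ILCP, CILP, α4β7+ CLP, ILC2P, CLP differed by more than the larger SD.

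Rbpj, which encodes the DNA-binding partner of the Notch intracellular domain, was low and spread widely within groups. It ran from 8.2 to 112.5 CPM in CLP (54 ± 42.3, n = 8) and stood at 23.5, 24.8, 32.8, 42 and 54.5 CPM in α4β7+ CLP. It ran from 0 to 197 CPM in CILP (79.3 ± 64.8, n = 7), stood at 16.8, 113.6 and 290.8 CPM in ILCP, and ran from 0 to 175.4 CPM in ILC2P (60.8 ± 65, n = 8). All groups overlapped, no neighbours in the order of the means differed by more than the larger SD, and no comparison called it. Among the fitted wild-type comparisons the one furthest from 0 was CILP against α4β7+ CLP (log2 1.08, SE 0.98, adjusted p = 0.727 in edgeR).

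Tle1 (chr4:72109945-72200989), which encodes a Groucho corepressor, was present at few counts in CLP and at 0 in all 7 CILP libraries. Over the CILP group 3 counts would be 2.22 CPM, the level that a count of 0 still allows. In CLP 4 of 8 libraries held 12 counts in all (12.4 ± 15.4 CPM), and they were all 3 libraries of batch 1 and 1 of the 5 of batch 2. In α4β7+ CLP 4 of 5 libraries held 23 counts, at 0, 6, 8.2, 31.3 and 35 CPM. One ILCP library, in batch 1, held 176.7 CPM and the other 2 held 0, and 1 ILC2P library of 8 held 62 CPM. Tle1 was at least 9.49-fold lower in CILP than in α4β7+ CLP, taking 3 counts over the CILP group as the floor, and the test did not call it (adjusted p = 0.0567 in edgeR). Without α4β7+ CLP library 2, which held 12 of the 23 counts, the bound is 7-fold. The 13 counts of 1 control well, more than those of all 8 CLP libraries, are the background beside these levels.

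Hes1 (chr16:30065357-30067796), which encodes a repressor of the bHLH class and is a direct Notch target, had its highest mean in CILP, where all 7 libraries held it. The 7 CILP libraries ran from 142.8 to 475.5 CPM (median 384.6), and the 8 CLP libraries ran from 59.4 to 238.5 CPM (median 88.7). The 5 α4β7+ CLP libraries stood at 0, 15.6, 15.7, 61.9 and 327.9 CPM. ILCP stood at 25.2, 79 and 920.8 CPM, and ILC2P ran from 0 to 459.4 CPM (median 40.2). Of the CILP libraries 6 lay above every CLP library and 1 lay within the CLP range, and 1 library of α4β7+ CLP, 1 of ILCP and 2 of ILC2P reached the CILP range or passed it. In the order CILP, ILCP, CLP, ILC2P, α4β7+ CLP no neighbours differed by more than the larger SD.

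In the test across all genes Hes1 passed in no wild-type comparison. CILP (357 ± 106.5 CPM, n = 7) against CLP (117.5 ± 67.2 CPM, n = 8) gave log2 1.74 (SE 0.73, adjusted p = 0.173 in edgeR). Against α4β7+ CLP (84.2 ± 138.2 CPM, n = 5) it gave log2 2.29 (SE 0.89, adjusted p = 0.167), and ILC2P (101.3 ± 152.6 CPM, n = 8) against CILP gave log2 −1.97 (SE 0.76, adjusted p = 0.104). All 3 passed in limma-voom with quality weights, with adjusted p of 0.0359, 0.00015 and 0.00626. In edgeR, CILP against CLP passed with only these 2 groups fitted (adjusted p = 0.02), and ILC2P against CILP passed in batch 1 alone (log2 −3.45, adjusted p = 0.0315) but not in batch 2 alone (log2 −1.13, adjusted p = 0.623). Hes1 also passed against α4β7+ CLP without α4β7+ CLP library 3 (adjusted p = 0.0243) and for ILC2P without ILC2P library 5 (adjusted p = 0.0284). Those 2 libraries had the highest Hes1 of their groups (327.9 and 459.4 CPM), against the direction of the difference. In DESeq2 and every other recomputed fit Hes1 stayed uncalled in these 3 comparisons. The fits were 11 other settings, and 15, 12 and 15 fits with 1 library left out.

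Hey1 (chr3:8663359-8667038), a target related to Hes1, was at 0 counts in all 8 CLP and all 5 α4β7+ CLP libraries of the wild type and was found in few later ones. CILP libraries 1 and 3 held 275.1 and 79.3 CPM, 1 ILCP library held 157.5 CPM, 1 ILC2P library held 14.8 CPM from 1 count, and the other 5 CILP libraries held 0. Every library with a Hey1 count was in batch 2. Hey1 was at least 23.2-fold higher in CILP than in CLP, taking 3 counts over the CLP group as the floor (adjusted p = 0.0375 in edgeR). Hey1 passed the filter on low counts only through CILP library 1 and ILCP library 2. Both the bound and the call rest on CILP library 1. Without it the remaining 10 counts are 3.45 times the floor of the CLP group. The 74 counts of library 1 came from its 2 technical repeats (36 of 85470 and 38 of 77362 counts) and not from the parent library (0 of 169683). With the parent libraries alone the adjusted p was 0.171 and without CILP library 1 it was 0.164 (edgeR). It was 0.0501 without CILP library 3 and 0.0669 to 0.0793 without any 1 of CLP libraries 1 to 5. DESeq2 gave an adjusted p of 0.914 and limma-voom 0.26.

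Technical repeats of 1 sample differed as widely for other members. Rbpj in CILP library 1 had 8, 1 and 44 counts in totals of 169683, 85470 and 77362. Hes1 in CLP library 2 had 2, 6 and 32 counts in totals of 124779, 23088 and 37280. Intervals and floors therefore cover counting error only.

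Dtx1 (chr5:120680203-120711867), which encodes an E3 ligase of the pathway, held 4 counts in 1 of 8 CLP libraries (30.7 CPM), 10 in 2 of 7 CILP libraries and 12 in 2 of 3 ILCP libraries (8.4 and 54.3 CPM). It was at 0 in all α4β7+ CLP and ILC2P libraries. Nrarp (chr2:25180758-25183339), a target that feeds back on the Notch complex, held 5 counts in 2 of 8 CLP libraries (17 and 17.9 CPM) and 22 counts in 2 of 5 α4β7+ CLP libraries (5.2 and 123.8 CPM). It was at 0 in every wild-type CILP, ILCP and ILC2P library. In those groups 3 counts over the group would be 2.22, 7.43 and 5.68 CPM, and the CLP mean of 4.4 CPM lies above the first of these and below the other two. Nrarp passed in no comparison (adjusted p = 0.222 for CILP against CLP and 0.171 against α4β7+ CLP in edgeR).

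**Figure D2:**
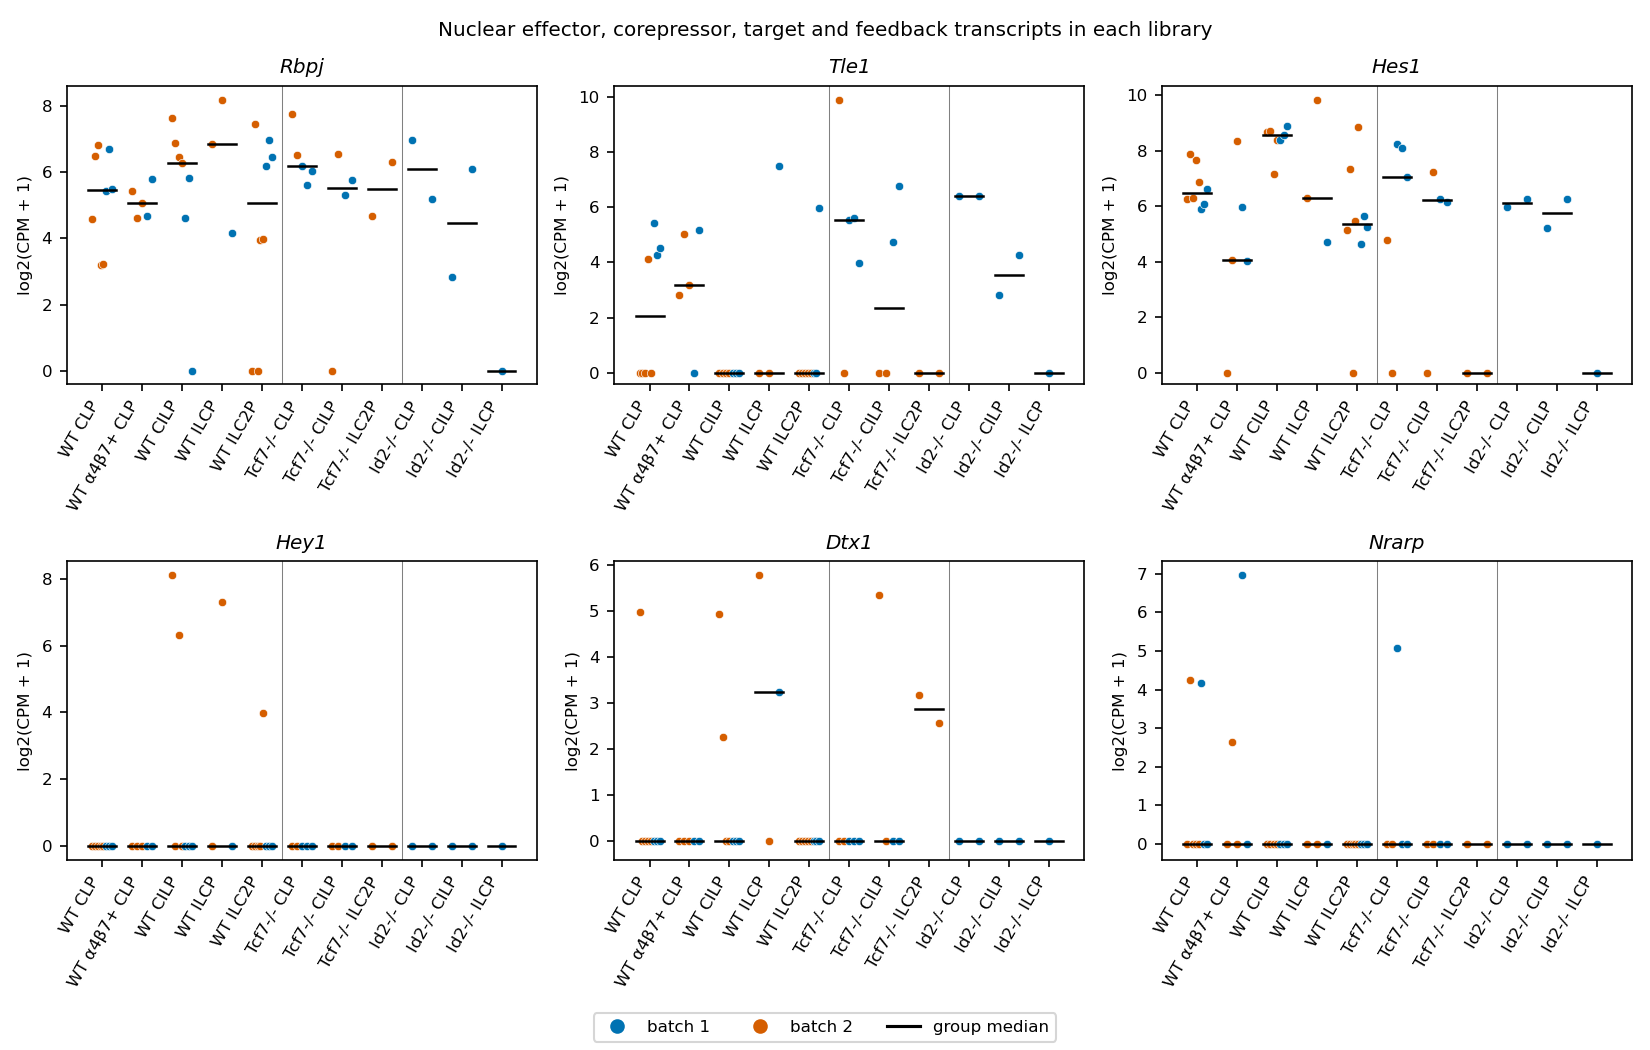
CPM of Rbpj, Tle1, Hes1, Hey1, Dtx1 and Nrarp in each of the 47 libraries, on a log2(CPM + 1) axis, by genotype and population. Points are libraries coloured by batch and bars are group medians. Hes1 is highest in wild-type CILP (median 384.6 CPM), and Hey1, Dtx1 and Nrarp are at 0 in most libraries.

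Counted over the members, CILP against CLP called 2 of the 7 tested where 4.31% of the 10972 genes were called: 1 higher, Hey1 (2.34% of all genes), and 1 lower, Notch1 (1.97%). Hey1 was among the tested genes through the libraries in which it was high. CILP against α4β7+ CLP called 1 (Notch1, lower) against 2.35% of all genes, 1.44% lower, and ILC2P against CLP called 1 (Notch1, lower) against 11.5%, 8% lower. The remaining wild-type comparisons called 0 members in edgeR and in DESeq2. They were α4β7+ CLP against CLP (0.0456% of genes called), ILCP against CILP (0.374%), ILC2P against CILP (5.32%) and ILC2P against ILCP (0.483%). Limma-voom called 0 there too, except 1 for ILC2P against CILP, which was Hes1. At an unadjusted p under 0.05 in edgeR they held 0, 1, 3 and 0 members, beside 831, 1181, 2440 and 1361 of the 10972 genes. CILP against CLP and against α4β7+ CLP held 5 members each, beside 1848 and 1569 genes. Tle1, Hey1 and Nrarp, at 0 in most libraries, were among the 5 both times. ILC2P against CLP held 1 member, beside 2976 genes. The median log2 fold change of the 7 members for CILP against CLP was 0.48, the value of Rbpj, beside 0.06 over all genes tested. Putting the members at 0 counts at their bounds leaves that median as it is.

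**Figure D3:**
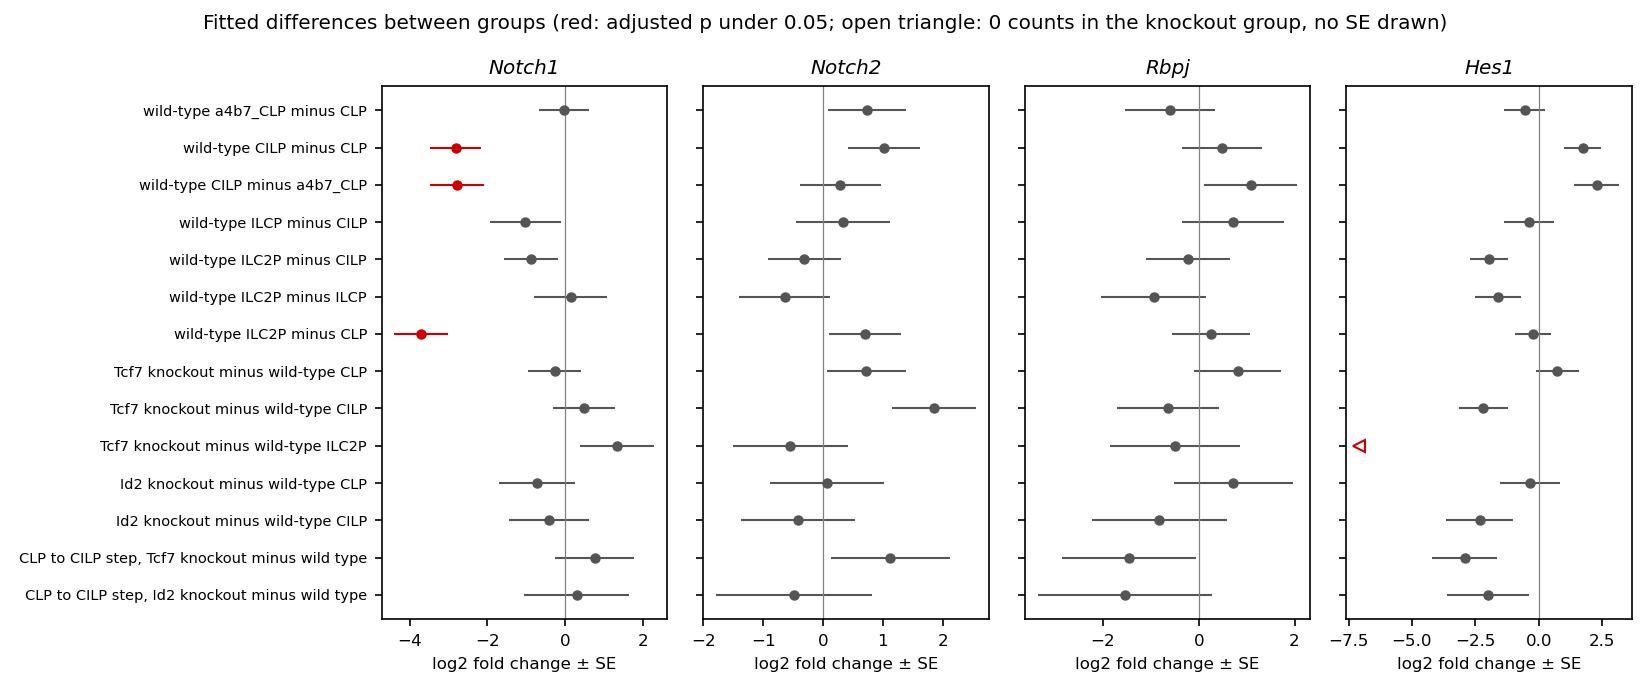
Fitted log2 fold change with its SE for Notch1, Notch2, Rbpj and Hes1 (columns) in each of the 14 comparisons (rows); red marks an adjusted p under 0.05. The red Notch1 points are the falls of 2.79 to 3.70 on the log2 scale, and the open triangle is the Hes1 difference whose knockout group held 0 counts.

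In the knockouts the targeted genes were examined first. Tcf7 stood at 31.1 ± 26.2 CPM (0 to 63.4, n = 4) in Tcf7 knockout CILP and at 444.7 ± 253.3 CPM (166.2 to 779.2, n = 7) in wild-type CILP, without overlap. The test did not call it (log2 −3.55, adjusted p = 0.157 in edgeR). Tcf7 counts remained in 3 of 5 knockout CLP, 3 of 4 knockout CILP and 1 of 2 knockout ILC2P libraries (9, 24 and 11 counts). The sources used here do not say whether the tags lie in the deleted part, so these counts check the labels only in part. Id2 stood at 27.1 and 116.4 CPM in the 2 Id2 knockout CILP libraries and at 79.6 to 2286.3 CPM in wild-type CILP, and at 0 in both knockout CLP libraries.

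Without Tcf7, the CLP held Notch1 at 128.2, 241.4, 258.4, 333.6 and 940.8 CPM, which overlapped the wild type (log2 −0.27, SE 0.68, adjusted p = 1 in edgeR). Hes1 stood at 0, 26.8, 134.2, 271.6 and 300.5 CPM there, with the 3 libraries of batch 1 above the 2 of batch 2. Tle1 stood at 0, 14.9, 45.7, 47.7 and 947.7 CPM, against at most 42.4 CPM in wild-type CLP, and had the third smallest p of all genes (p = 0.000129 unadjusted, adjusted p = 0.422 in edgeR). Library 1 alone held 106 of the 126 counts. No member was called here (0% of all genes, 0 members in DESeq2 and limma-voom), and with no filter on low counts Tle1 was (adjusted p = 0.0291). At an unadjusted p under 0.05 there was 1 member, beside 713 of the 10972 genes tested.

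In Tcf7 knockout CILP Notch1 stood at 0, 25.4, 38.3 and 320.1 CPM, with 3 of 4 libraries in the wild-type CILP range and 1 near the level of CLP. Hes1 stood at 0, 71.1, 76.6 and 149 CPM against 142.8 to 475.5 CPM in the wild type, with 1 knockout library above the lowest wild-type one (log2 −2.19, SE 0.97, adjusted p = 0.373 in edgeR). Notch2 stood at 38.3, 140, 409.1 and 2282 CPM, the highest being library 2 with 720 counts (log2 1.85, SE 0.70, adjusted p = 0.285). Tle1 was at 0, 0, 25.5 and 106.7 CPM where all wild-type CILP libraries were at 0, and Hey1 was at 0. The test called 0 members (0.501% of all genes, 0 in DESeq2 and in limma-voom). At an unadjusted p under 0.05 there were 4 members, beside 1215 of the 10972 genes tested. The 8 myeloid markers took 0% to 0.916% of counts in these libraries, with Mpo, Elane and Prtn3 at 0, and 0% to 0.152% in wild-type CILP, and the 6 T cell markers 0.00405% to 0.0953% against 0.0136% to 0.448%. The 6 erythroid markers took 0.00313% to 0.322% against 0% to 0.0388%, and the 6 CILP markers, of which Tcf7 is 1, 0.0703% to 0.413% against 0.25% to 0.584%. Their part was not tested. The difference between the genotypes in the step from CLP to CILP was log2 −2.93 for Hes1 (SE 1.27, p = 0.0235 unadjusted, adjusted p = 0.46) and 0.76 for Notch1 (SE 1.01, adjusted p = 1). It called 0 members too (0.0456% of genes, 0 in DESeq2 and in limma-voom), with 1 member at an unadjusted p under 0.05, beside 996 genes.

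In Tcf7 knockout ILC2P, Hes1 was at 0 in both libraries, against counts in 7 of 8 wild-type ILC2P libraries (0 to 459.4 CPM, median 40.2). It was at least 11.9-fold lower by the floor of 3 counts over the knockout group (adjusted p = 0.0412 in edgeR), the 1 member called where 2.57% of all genes were, 0.0273% lower. Wild-type library 5 held 31 of the 57 counts, and without it the bound is 6.2-fold. The wild-type range reaches 0, so the groups meet there. The call was lost with batch 2 alone (adjusted p = 0.101), without a batch term (0.0576) and with only these 2 groups fitted (0.394). It was also lost without either knockout library (0.328 and 0.325) and without wild-type ILC2P library 2 or 5 (0.0547 and 0.0976). Notch1 stood at 77.6 and 80.9 CPM there (16 of 248697 and 10 of 252100 counts), within the wild-type range, and Notch2 at 72.8 and 155.3 CPM. Knockout library 1, which held the 10 Notch1 counts, had the lowest scaling factor of all libraries fitted (0.4949), which raises its CPM. Plasma cell markers (Igha, Jchain, Mzb1, Sdc1) took 17.5% of counts in 1 of the 2 knockout libraries and 0.00161% in the other, with Sdc1 at 0 in both, against at most 0.0311% in wild-type ILC2P. The 5 ILC2P markers took 0.2% and 0.399% there (0.388% to 1.29% in the wild type), the 8 myeloid markers 0% and 0.732% (0% to 0.419%) and the 6 erythroid markers 0.00241% and 0.38% (0% to 0.0311%). Whether cells with these markers bear on the Hes1 values was not tested.

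**Figure D4:**
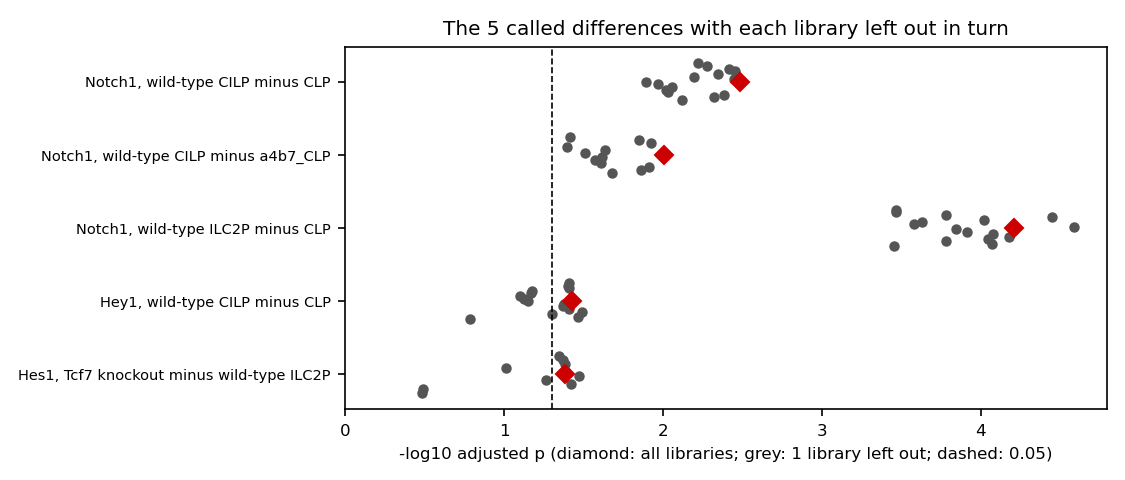
Adjusted p of the 5 called member differences on a −log10 axis, with all libraries (red diamond) and with each library left out in turn (grey). Every Notch1 point lies to the right of the dashed line at 0.05, while 7 of 15 Hey1 points and 4 of 10 Hes1 points lie on its left.

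Without Id2, Notch1 stood at 258.2 and 316.9 CPM in CLP and at 49 and 49.7 CPM in CILP, within the wild-type ranges. Against the wild type Notch1 gave log2 −0.72 in CLP (SE 0.99, adjusted p = 1 in edgeR) and −0.43 in CILP (SE 1.03, adjusted p = 1). It was at 0 in the 1 ILCP library, where 3 counts would be 28 CPM. In that library the 5 ILC2P markers took 0.0269% of counts (0.279% to 0.803% in wild-type ILCP). The 6 CILP markers took 0.0242% (0.223% to 0.582%) and the 8 myeloid markers 1.2% (0.00494% to 0.0123%). Hes1 stood at 62 and 75.5 CPM in CLP and at 36.8 and 76.9 CPM in CILP, below all 7 wild-type CILP libraries, and the test did not call it (log2 −2.33, SE 1.31, adjusted p = 0.82). In CILP Notch2 stood at 122.1 and 128.7 CPM against 130.6 to 265.7 in the wild type (log2 −0.42, SE 0.96, adjusted p = 1). There Tle1 stood at 6.1 and 18.1 CPM against 0 in all 7 (adjusted p = 0.797). In CILP Hes1, Notch2 and Tle1 thus did not overlap the wild type, and the share of all genes without overlap between 2 and 7 libraries was not computed. Tle1 stood at 82.7 and 83.4 CPM in Id2 knockout CLP, above every wild-type CLP library, and did not pass either (log2 1.98, SE 1.66, adjusted p = 1). The share of all genes without overlap was not computed for these 2 libraries either. Both libraries are of batch 1, where all 3 wild-type CLP libraries held Tle1, at 18.3 to 42.4 CPM. The 6 dendritic markers took 0.938% and 1.12% of counts in these 2 libraries against 0.0496% to 0.962% in wild-type CLP. What part either has in the Tle1 values was not tested. Hey1, Dtx1 and Nrarp were at 0 in all 5 Id2 knockout libraries. No member was called in CLP (0.0365% of all genes), in CILP (0.0911%) or in the step between them (0.0365%). At an unadjusted p under 0.05 there were 0 members in each, beside 348, 687 and 528 of the 10972 genes tested. DESeq2 and limma-voom called 0 members. Markers of the sorted cells and of other lineages moved in the same 2 CILP libraries. The 6 CILP markers took 0.0294% and 0.0362% of counts against 0.25% to 0.584% in the wild type, with Gata3 at 116.9 ± 26.6 against 2120.1 ± 1231.4 CPM and Zbtb16 at 38.9 ± 23 against 338.6 ± 111.1 CPM. The 6 erythroid markers took 0.184% and 0.194% against 0% to 0.0388%, without overlap: Car1 was at 1198.5 and 1556.5 CPM against at most 438.7, Klf1 at 122.1 and 159.3 CPM against at most 33.5 and Gata1 at 91.9 and 470.3 CPM against at most 34.4, with Hba-a1 and Hbb-bs at 0. The 5 mast cell and basophil markers took 0.313% and 0.445% against 0.00473% to 0.475%. Within that list Gata2 stood at 612.8 and 719.1 CPM against at most 71.2, and the wild-type maximum is 1 library with Mcpt8 at 3585.6 CPM. The 8 myeloid markers took 0.0366% and 0.0437% against 0% to 0.152%, with Mpo at 185.4 and 202.2 CPM against at most 130.6 and Lyz2 and Csf1r at 0. Their part in the values of Hes1, Notch2 and Tle1 was not tested.

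Another 75 genes of the pathway were listed with their roles, and 57 were tested. The list shares Tcf7 and Gata3 with the CILP markers, Gata3 and Il2ra with the ILC2P markers, and Il7r with the CLP markers. Counts of called pathway genes here and below include these markers, so they are no measure of the pathway apart from the sorted identities. In CILP against CLP 4 of the 57 were higher, beside 2.34% of all genes, and 1 lower, beside 1.97%: the ligand Dll1 and the lymphoid targets Tcf7, Gata3 and Bcl11b rose, and Hhex, a homeobox gene of early progenitors, fell. None of the tested genes of receptor processing (9), glycosylation (5), coactivators (8), corepressors (12), turnover and trafficking (10) and other HES and HEY factors (2) was called there. Tcf7 stood at 444.7 ± 253.3 CPM in CILP and at 1 ± 2.9 CPM in CLP, where it had 1 count in all (adjusted p = 9.85e-08 in edgeR). Gata3, a transcription factor of T cells and group 2 cells, stood at 2120.1 ± 1231.4 CPM in CILP against 112.1 ± 211.6 CPM (adjusted p = 0.0032). For Bcl11b, a transcription factor of T lineage commitment, the levels were 516.7 ± 237.4 and 0.7 ± 2.1 CPM (adjusted p = 6.54e-13). Hhex fell from 152.6 ± 87.4 to 2.6 ± 3.4 CPM (adjusted p = 0.000337). Dll1 was at 0 in all 8 CLP libraries and in 4 of 7 CILP libraries held 62 counts, at least 17.1-fold higher (adjusted p = 0.0107). CILP library 2 held 44 of these counts, and without it the bound is 8.15-fold. The Dll1 call was lost in DESeq2 (adjusted p = 0.665), in batch 1 alone (0.255) and in batch 2 alone (0.149). In batch 2 alone Gata3 (adjusted p = 0.119) and Hhex (0.0986) were not called either. The same 5 genes were called in the same directions against α4β7+ CLP, where Dll1 lost its call in 8 and Tcf7 in 9 of 12 fits with 1 library left out and both within either batch. None of the 57 was called between the CLP populations, where Tcf7 (adjusted p = 0.138) and Myc (adjusted p = 0.318) had the smallest p.

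From CILP to ILC2P, 2 of the 57 pathway genes rose and 4 fell, where 5.32% of all genes were called. The median log2 fold change over all genes tested was −0.55 for this step. Il2ra, which encodes the α chain of the receptor for interleukin 2, went from 1.1 ± 2.8 CPM up to 407.1 ± 245.1 CPM (adjusted p = 2.98e-07 in edgeR), and it was already at 329.4 ± 129.3 CPM in ILCP (adjusted p = 1.1e-05 for ILCP against CILP), the only pathway gene called there. Lfng, a glycosyltransferase that modifies Notch receptors, rose from 31.5 ± 41.9 to 182.9 ± 204.3 CPM (adjusted p = 0.0321). That call was lost in 5 of 15 fits with 1 library left out (adjusted p = 0.235 without ILC2P library 5, 0.0585 to 0.0618 without any 1 of CILP libraries 1 to 4), within either batch and without a batch term. The corepressor gene Tle3 fell from 482.9 ± 326.3 to 36.4 ± 42.9 CPM (adjusted p = 8.3e-05), the coactivator gene Maml3 from 117.2 ± 90.8 to 1.6 ± 4.4 CPM (adjusted p = 0.00226) and Tcf7 from 444.7 ± 253.3 to 18.1 ± 27.1 CPM (adjusted p = 0.00102). Dll1 went to 0 in all 8 ILC2P libraries (adjusted p = 0.0414), a call lost in 11 of 15 fits with 1 library left out and under 6 of 10 other settings. ILC2P against ILCP called none of the 57, with Maml3 (adjusted p = 0.0665) and Tcf7 (adjusted p = 0.182) nearest.

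Against CLP, ILC2P had 7 pathway genes higher (Psen2, Lfng, Tle2, Il2ra, Tcf7, Gata3, Bcl11b) and 5 lower (Rfng, Maml3, Tle3, Hes6, Hhex) of the 57, where 11.5% of all genes were called and 8% were lower. Bcl11b reached 550.8 ± 312.9 CPM and Gata3 3075.2 ± 1901.2 CPM in ILC2P, and Hhex was at 0 in all 8 libraries, at least 27.8-fold lower (adjusted p = 2.95e-05 in edgeR). Psen2, a presenilin of the receptor-cleaving complex, stood at 201.4 ± 209.3 against 56.7 ± 95 CPM (adjusted p = 0.0356), Hes6 at 19.3 ± 26.2 against 143.3 ± 151.5 CPM (adjusted p = 0.0318), and Tle2 at 37.6 ± 85 against 0.8 ± 2.2 CPM (adjusted p = 0.0331). Rfng stood at 1.5 ± 4.4 against 63.5 ± 120.5 CPM (adjusted p = 0.0191), which was lost without CLP library 3 (adjusted p = 0.163). Psen2 lost its call in 7, Tle2 in 6, Hes6 in 5, Tcf7 in 2 and Lfng in 1 of 16 fits with 1 library left out. Under the other settings Psen2 lost its call in 4 of 10, Rfng in 4 of 9, Hes6 in 3 of 10, Lfng and Tcf7 in 2 of 10 each, and Tle2 (DESeq2) and Tle3 (batch 1 alone) in 1.

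In the knockouts few pathway genes were called. Bcl11b was lower in Tcf7 knockout CILP (7.1 ± 14.3 CPM with a count in 1 of 4 libraries, against 516.7 ± 237.4 CPM, adjusted p = 0.000446 in edgeR), and its step from CLP to CILP differed between the genotypes (log2 −7.79, adjusted p = 0.00314). Both calls were lost in batch 2 alone (adjusted p = 0.443 and 0.46), and that of the step without Tcf7 knockout CLP library 5 (0.0515). In Tcf7 knockout ILC2P, Dll1, Maml3, Cd3e and Hhex were called higher than in the wild type, 4 of the 57 where 2.57% of all genes were called, and each call was lost under several settings. Dll1 stood at 92.2 ± 6.9 CPM (n = 2) where 8 wild-type libraries were at 0. Its call was lost without either knockout library (adjusted p = 0.114 and 0.0633), in DESeq2 (0.847), in batch 2 alone (0.173) and without 2 wild-type libraries of low depth (0.0543). Dll1 was at 365.7 ± 509.5 CPM in all 4 knockout CILP libraries (adjusted p = 0.326 against the wild type). Maml3 and Cd3e each had counts in 1 of the 2 knockout libraries, library 2, and were not called without it (adjusted p = 0.914 and 1). Maml3 also lost its call under 3 of 9 other settings. Cd3e lost it in 5 of 10 fits with 1 library left out and under 5 of 8 other settings. Hhex lost it in 8 of 10 fits with 1 library left out (adjusted p up to 0.491) and under 7 of 9 other settings. Tcf7 knockout CLP called none, with Tle2 (adjusted p = 0.564) and Tcf7 (adjusted p = 0.565) nearest. The Id2 knockout called none, in CLP with Tle2 and Gata3 nearest (adjusted p = 1 for both) and in CILP with Hhex (147.5 ± 16.7 against 2.6 ± 3.4 CPM, adjusted p = 0.0605) and Il7r (129.6 ± 68.1 against 1449.1 ± 764 CPM, adjusted p = 0.0805). In the step from CLP to CILP the nearest were Il7r (adjusted p = 0.27) and Hhex (adjusted p = 0.851).

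**Figure D5:**
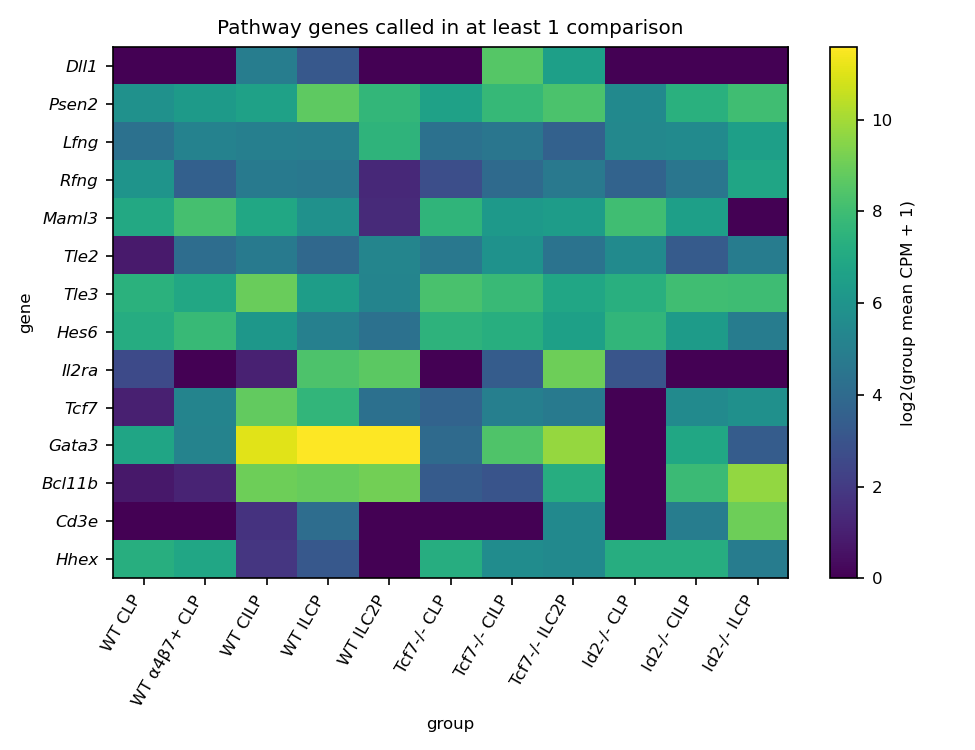
Group means of the 14 pathway genes called in at least 1 comparison, as log2(mean CPM + 1) by colour, with genes in rows and the 11 groups in columns. In the wild type Gata3 and Bcl11b are bright in CILP, ILCP and ILC2P, Tcf7 in CILP (444.7 CPM) and less so in ILCP, Il2ra in ILCP and ILC2P, and Hhex in both CLP populations.

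Likeness over the 47 libraries was measured as Pearson's r of log2(CPM + 1), centred within each batch, among 7310 genes. The points share library depth, and the values are descriptions. For Notch1 the nearest genes were Mef2c, Nde1 and Ccnd1, each at r = 0.75, and Mef2c stood at 494.3 CPM in wild-type CLP and 70.3 CPM in CILP. Rbpj was nearest to Psmb10 (0.73), Thap12 (0.68) and Rif1 (0.68), and Notch2 to Dnajc3 (0.58), Nfatc3 (0.57) and Cab39 (0.55). Hes1 was nearest to Ptpre (0.6), Rgs1 (0.57) and Vps26b (0.56), Tle1 to Ripor1 (0.58), Rasal1 (0.58) and Fmnl2 (0.52). For Hey1 they were Atf3 (0.59), Selenoi (0.51) and Ddit3 (0.47), and for Nrarp Ercc6l (0.51), Lifr (0.48) and Lrrk1 (0.47). Between members r was highest for Notch1 with Tle1 (0.47) and lowest for Notch2 with Tle1 (−0.45), and Notch1 with Hes1 gave 0.21.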

How the data were processed

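The data are CEL-seq libraries of 100 sorted cells in 2 batches. What the authors deposited are raw read counts with Entrez identifiers as row names. Per the submitters' processing notes, CASAVA 1.8.2, featureCounts, limma, edgeR (3.8.2 and 3.22.0) and the mouse build mm10 were used. The sources used here give no aligner and no molecular identifiers. RefSeq GRCm38.p6 gave symbols for 25275 of 27179 identifiers (92.99%). The 4 technical repeats were added to their parents, which turned 70 samples into 66 libraries. Of these, 12 control wells, 6 Nfil libraries (an unsuccessful knockout, per the labels) and 1 outlier of CILP were set aside, and 47 entered the fit.

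The test was the quasi-likelihood test of edgeR 4.0.16 in R 4.3.3 with a robust fit. Genes were kept by filterByExpr by group (minimum 10 counts, 15 in total). Because 1 group holds 1 library, 1 library above the cutoff was enough to keep a gene. Hey1 passed only through CILP library 1 and ILCP library 2, and Nrarp only through α4β7+ CLP library 4. Libraries were scaled by TMM, and the model had 11 group means and a batch term (35 residual degrees of freedom). A call is a Benjamini-Hochberg adjusted p under 0.05 over 10972 genes. Where a group has 1 or 2 libraries, its spread is taken from the other groups. The biological coefficient of variation was 109.7%. Beside a group with no count, folds were computed against 3 counts over that group. Intervals and floors cover counting error only, since amplified reads are not independent molecules.

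Members, lists and tests were chosen with earlier results of these data known. The rule for named genes was every member, each of 75 pathway genes that was called, or the 2 with the smallest p where none was, and 3 likeness genes per member of at least 20 CPM, leaving out unnamed models, ribosomal protein and mitochondrial genes. The alternatives were DESeq2 1.42.0, DESeq2 size factors put into edgeR (these use the 382 genes free of zeros), limma-voom with quality weights (limma 3.58.1), fits without the filter, without the batch term, within a batch, on the compared groups, without the repeats, with the outlier, without 2 libraries below 20% of the median of their batch, and with each library omitted once. Simulated counts with known changes were used to test the scripts.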

Additional observations from a re-analysis of the deposited data

Results flagged for a closer look

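In 17 of 37 pairs of member and group with 4 to 10 libraries, 1 library lay far from the rest by Dixon's criterion. Its rate of about 1 in 20 by chance holds for normally distributed values, so the 17 pairs cannot be compared with it. Where 1 library alone held counts, the criterion is met however few they were. This was so for Hey1 and Tle1 in wild-type ILC2P and Dtx1 in wild-type CLP. It was also so for Dtx1 in Tcf7 knockout CILP and Nrarp in Tcf7 knockout CLP. No reason for the flagged values was tested.

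Among receptors, Notch1 was highest at 940.8 CPM in Tcf7 knockout CLP library 3 and at 320.1 CPM in Tcf7 knockout CILP library 4. Notch2 was highest at 187.3 CPM in wild-type CLP library 8 and at 2282 CPM in Tcf7 knockout CILP library 2. Rbpj reached 214.6 CPM and Tle1 947.7 CPM in Tcf7 knockout CLP library 1, and Tle1 62 CPM in wild-type ILC2P library 8.

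Hes1 was highest at 327.9 CPM in α4β7+ CLP library 3 and at 459.4 CPM in wild-type ILC2P library 5, and lowest at 142.8 CPM in wild-type CILP library 3. Hey1 stood at 275.1 CPM in wild-type CILP library 1 and at 14.8 CPM in wild-type ILC2P library 5. Dtx1 stood at 30.7 CPM in wild-type CLP library 1, 29.7 CPM in wild-type CILP library 1 and 40 CPM in Tcf7 knockout CILP library 1. Nrarp stood at 123.8 CPM in α4β7+ CLP library 4 and at 32.7 CPM in Tcf7 knockout CLP library 3.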

How the results depend on the processing

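Of 2282 values of single members recomputed under the alternatives, 2252 kept direction and side of the threshold, 20 lost a call, 10 gained one and 0 reversed. In 9 of 14 comparisons the count of members called never changed. For CILP against CLP (2 called) it was 1 with DESeq2, 1 with batch 1 alone, 0 with batch 2 alone, 1 with parent libraries alone, and 1 to 2 with 1 library left out. For CILP against α4β7+ CLP (1 called) it was 0 with batch 2 alone, 2 with limma-voom, 2 with no filter, and 1 to 2 with 1 library left out. For ILC2P against CILP (0 called) it was 1 with batch 1 alone, 1 with limma-voom, and 0 to 1 with 1 library left out. For Tcf7 knockout ILC2P (1 called) it was 0 with batch 2 alone, without a batch term and with only these groups, and 0 to 1 with 1 library left out. For Tcf7 knockout CLP (0 called) it was 1 with no filter. Among pathway genes, Maml3 in Tcf7 knockout ILC2P ran from log2 −1.19 to 7.05 with 1 library left out, the lowest without knockout library 2, the one that held its counts. Over all genes, the alternatives gave 105 to 721 calls beside 473 for CILP against CLP, 31 to 833 beside 258 against α4β7+ CLP, 8 to 173 beside 41 for ILCP against CILP, 90 to 719 beside 584 for ILC2P against CILP, 157 to 1547 beside 1258 against CLP, 0 to 96 beside 55 for Tcf7 knockout CILP, 2 to 319 beside 282 for Tcf7 knockout ILC2P and 9 to 530 beside 10 for Id2 knockout CILP, most of the lowest being within batch 2 or the compared groups and most of the highest in limma-voom. The remaining ranges were 0 to 33 beside 5 for α4β7+ CLP against CLP, 0 to 115 beside 53 for ILC2P against ILCP, 0 to 18 beside 0 for Tcf7 knockout CLP, 1 to 25 beside 4 for Id2 knockout CLP, and for the step from CLP to CILP 0 to 38 beside 5 (Tcf7) and 3 to 199 beside 4 (Id2). The causes were not tested. No paired analysis was possible because the labels give no replicate numbers. Dtx1, Nrarp, Hey1 and Tle1 were at 0 in most libraries, and the part of depth in this was not tested.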

Other observations

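In 6 libraries labelled Nfil, whose knockout the labels call unsuccessful, the members are given as CPM of the plain library total and entered no comparison. Notch1 stood at 228.9 and 262.5 CPM in the 2 CLP libraries, 41.2 CPM in CILP library 1 and 0 in both ILC2P libraries. Hes1 stood at 335.4 and 106.9 CPM in CLP, 20.6 CPM in CILP library 1 and 0 in both ILC2P libraries. Rbpj reached 941.5 CPM (33 of 35051 counts) in ILC2P library 2 and Nrarp 144.3 CPM (7 of 48517 counts) in CILP library 1. CILP library 2 held 296 counts in all and none of the members. The outlier CILP library (47089 counts) held 3 counts of Notch2, 5 of Rbpj, 3 of Hes1 and 0 of the other 5 members, of which 0 counts allow up to 63.7 CPM.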
